A study of Rattus norvegicus with 6 samples.

Results

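The cluster of miR-221 and miR-222 is a pair of microRNA (miRNA) hairpins that lie close together on the X chromosome and are known to be made from a shared primary transcript. It was described here in cardiac fibroblasts and in the exosomes they released. Members were all listed miRNAs named miR-221 or miR-222, with either arm: 4 of the 728 mature miRNAs listed. In the files they are rno-miR-221-3p, rno-miR-221-5p, rno-miR-222-3p and rno-miR-222-5p, where rno stands for rat. The series held 3 libraries of exosomes from cardiac fibroblasts and 3 libraries of the cardiac fibroblasts themselves. All came from the hearts of Wistar rats at postnatal days 1 to 2, and no genetic change is given for either group. Fibroblasts were released by enzymatic digestion and grown in DMEM with 10% serum. Exosomes, small membrane vesicles, were pelleted by ultracentrifugation from medium, with 1% exosome-depleted serum, left on the cells for 48 h. The same serum levels and conditioning time are given for the fibroblast samples. One exosome column carried no number and is called the unnumbered exosome library. Nothing in the labels says whether replicates came from separate cultures; p-values therefore reflect the spread between these libraries, possibly a technical one.

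A miRNA is cut from a hairpin precursor as a duplex of a 5p and a 3p arm, of which usually only 1 strand is loaded into the silencing complex and pairs with target mRNAs through its seed, bases 2 to 8. In this cluster the 3p strands are the usual guides. They are best known for repressing the cell-cycle inhibitor p27 (Cdkn1b) and the receptor Kit, and have been studied mainly in endothelium, vascular smooth muscle and tumours. Small vesicles also carry miRNAs out of cells, and the comparison asked how the cluster's content of exosomes compares with that of the cells that made them.

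The mature sequences are shown because the results turn on how far the members can be told apart. They come from RefSeq (build GRCr8), are written 5′ to 3′, and have the seed in capitals.
miR-221-3p: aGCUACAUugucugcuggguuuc
miR-222-3p: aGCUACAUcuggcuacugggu
miR-221-5p: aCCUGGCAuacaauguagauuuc
miR-222-5p: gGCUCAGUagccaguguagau
The 3p members shared their first 8 bases, and with them the seed GCUACAU, which no other miRNA in the RefSeq table carried. Beyond that they were close: aligned with 1 gap base, 18 of 20 bases were identical, with 2 substitutions, and miR-221-3p ran 3 bases further at its 3′ end. How the authors' counting treated reads that match both members is not given in the sources used here, so a mixing of reads between them is uncertain. The 5p seeds, CCUGGCA in miR-221-5p and GCUCAGU in miR-222-5p, differed from each other and were found in no other mature miRNA of the table.

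In GRCr8 the miR-222 hairpin lies at chrX:6022621-6022723 and the miR-221 hairpin at chrX:6023182-6023290, both on the plus strand. The hairpins are 103 and 109 bases long, with 458 bases between them. Both lie within the spans of 2 long non-coding RNA genes, LOC120099382 and LOC120099384, whose strand and exons were not used here. These positions are those of the RefSeq table; the authors' build was rn5, per the submitters' processing notes, and their files give no coordinates.

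Depth differed greatly between the groups. Total miRNA counts lay between 113129 and 120224 in exosome libraries and between 2439559 and 12508651 in fibroblast libraries. One miRNA alone, miR-873-3p, took 84.9%, 87.3% and 90.1% of the counts of exosome libraries 1, 2 and unnumbered, against 1.26%, 0.391% and 2.37% in fibroblast libraries 1, 2 and 4. It left 18164, 14338 and 11825 counts for all other miRNAs of the exosome libraries. All 8 markers of fibroblasts and mesenchyme, such as miR-143-3p and miR-21-5p, were listed. Together they held 0.180%, 0.235% and 1.36% of the counts of exosome libraries 1, 2 and unnumbered, against 51.8% to 53.1% in fibroblast libraries. Without miR-873-3p in the total the exosome shares were 1.19%, 1.86% and 13.7%, so the unnumbered library stood apart from the other exosome libraries.

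The cluster was a small part of the miRNA pool in both groups. Its 4 members together had 92, 57 and 17 counts in exosome libraries 1, 2 and unnumbered, against 7383, 19409 and 4582 in fibroblast libraries 1, 2 and 4. The summed share of the members averaged 0.0471% ± 0.0313 of listed counts in exosome libraries and 0.153% ± 0.0361 in fibroblast libraries (SD, n = 3 each). The shares did not overlap (exact permutation test, two-sided, p = 0.1, and no smaller p is possible with 3 against 3 libraries). With miR-873-3p left out of the totals the order turned: the shares were 0.506%, 0.398% and 0.144% in the exosome libraries, against 0.117%, 0.156% and 0.192% in the fibroblast libraries, and these overlapped (exact permutation p = 0.3).

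**Figure D1:**
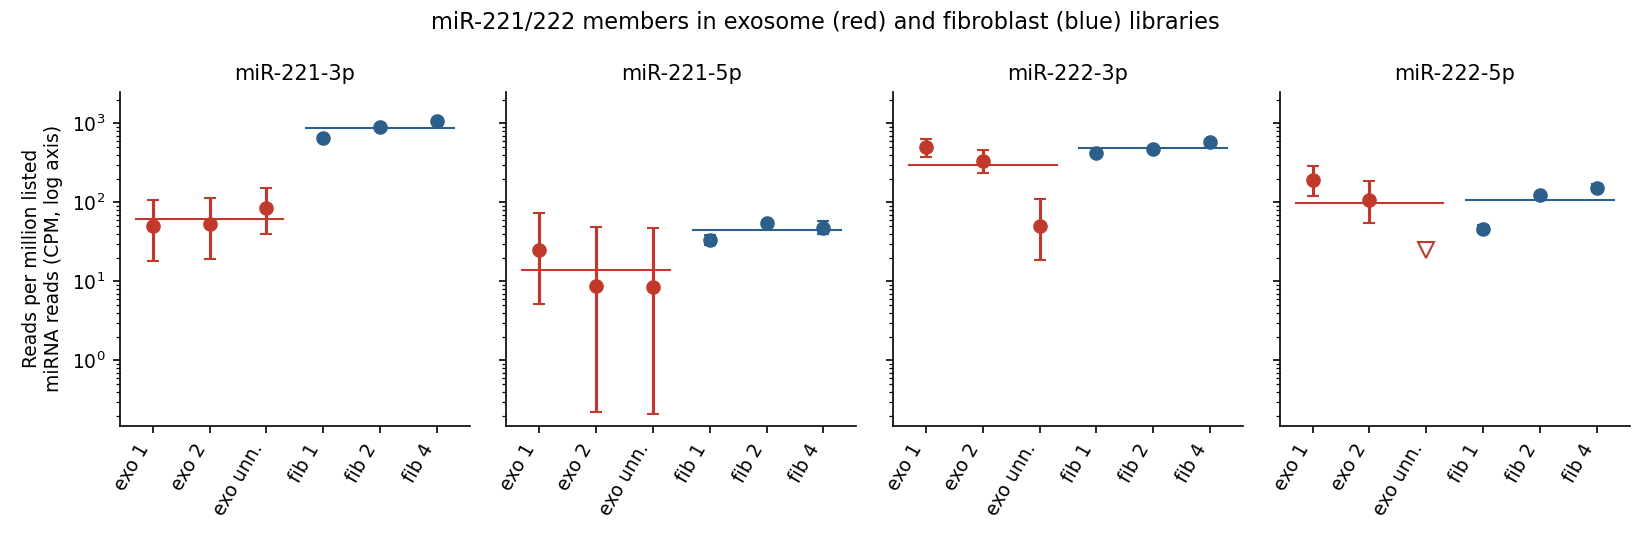
CPM (counts per 1000000 listed counts, log axis) of the 4 members in each library; bars are 95% Clopper-Pearson intervals, horizontal lines are group means, and the open triangle marks the 25.2 CPM that 3 counts would give in the unnumbered exosome library, where the count was 0. miR-221-3p lay at 49.9 to 84.0 CPM in exosomes, against 652 to 1087 CPM in fibroblasts, whereas the values of miR-222-3p overlapped between the groups.

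Of the guide strands, miR-221-3p fell in exosomes relative to fibroblasts and miR-222-3p did not pass the test. miR-221-3p had 6, 6 and 10 counts in exosome libraries 1, 2 and unnumbered, against 4161, 11298 and 2653 counts in fibroblast libraries 1, 2 and 4. These are 49.9, 53.0 and 84.0 CPM (counts per 1000000 listed counts) in exosomes, against 652, 903 and 1087 CPM in fibroblasts. All exosome values lay below all fibroblast values. These CPM are unscaled. With the libraries scaled by TMM, the log2 fold change of miR-221-3p was -3.34 (SE 0.82), or 10.2-fold lower (quasi-likelihood test of edgeR, adjusted p = 0.00050 by Benjamini-Hochberg over 698 tested miRNAs).

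miR-221-3p was the only member called: 1 of 4 was lower and 0 were higher, where 29.9% of all tested miRNAs were called, 18.6% as lower and 11.3% as higher. With an unadjusted p under 0.05 it was also the only 1 of the 4, where 37.7% of all tested miRNAs reached it. DESeq2 called the same member. All tested miRNAs had a median log2 fold change of -0.15, and relative to it miR-221-3p lay at -3.19. Its fold change was the 68th lowest of 698. In abundance, miR-221-3p ranked 76th, 70th and 60th of the listed miRNAs in fibroblast libraries 1, 2 and 4. In exosome libraries 1, 2 and unnumbered its ranks were 435, 386.5 and 144.

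The counts of miR-221-3p at matched totals were as follows. When each fibroblast library was thinned to 117449 counts, the mean exosome depth, 63, 79 and 124 counts of miR-221-3p were left in fibroblast libraries 1, 2 and 4, against the 6, 6 and 10 of the exosome libraries. Most of the reads of an exosome library were miR-873-3p. Without it in the totals, miR-221-3p stood at 330, 418 and 846 CPM in exosomes, against 661, 907 and 1114 CPM in fibroblasts, and these values overlapped. With library sizes free of the 5 most abundant miRNAs of each group its log2 fold change was -1.48 and was not called (edgeR adjusted p = 0.078; over the 15 alternatives it ranged from 1.9e-06 to 0.078). That scaling moved the median of all tested miRNAs to 1.58, and relative to the median miR-221-3p lay at -3.07.

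miR-222-3p, which carries the same seed, was near its fibroblast level in exosome libraries 1 and 2. Its counts were 60, 38 and 6 in exosome libraries 1, 2 and unnumbered, against 2709, 5887 and 1436 in fibroblast libraries 1, 2 and 4. These are 499, 336 and 50.4 CPM in exosomes, against 425, 471 and 589 CPM in fibroblasts. Exosome library 1 lay inside the range of the fibroblasts, library 2 somewhat below it, and the unnumbered library far below. With a log2 fold change of -0.81 (SE 0.69) it missed the threshold (edgeR adjusted p = 0.42), and the width of that error does not show that the groups were alike. Without miR-873-3p in the totals it stood at 3303, 2650 and 507 CPM in exosome libraries 1, 2 and unnumbered, against 430, 472 and 603 CPM in fibroblast libraries 1, 2 and 4, so that exosome libraries 1 and 2 were then the higher. In exosome libraries 1, 2 and unnumbered it ranked 63.5, 73 and 221.5 of the listed miRNAs; in fibroblast libraries 1, 2 and 4 it ranked 106, 112 and 87.

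The passenger strands had few exosome counts, and neither passed in the reported fit. Even so, miR-222-5p exceeded the guide miR-221-3p in exosome libraries 1 and 2, where that guide had 6 counts each. In the unnumbered exosome library, where that guide had 10 counts, miR-222-5p did not. miR-222-5p had 23, 12 and 0 counts in exosome libraries 1, 2 and unnumbered, against 298, 1546 and 376 in fibroblast libraries 1, 2 and 4. As CPM these were 191, 106 and 0 in exosomes, against 46.7, 124 and 154 in fibroblasts. The groups overlapped, with the highest and the lowest value both in exosomes, and the 0 of the unnumbered library allows up to 25.2 CPM by the limit of 3 counts, or 31.0 CPM as the upper end of the 95% Clopper-Pearson interval. Its log2 fold change was -0.18 (SE 0.61; edgeR adjusted p = 0.87), and its sign changed with the setting: it was 1.83, and called higher, with library sizes free of the 5 most abundant miRNAs of each group (edgeR adjusted p = 0.046, and 0.046 to 0.96 over the alternatives).

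miR-221-5p had 3, 1 and 1 counts in exosome libraries 1, 2 and unnumbered, against 215, 678 and 117 in fibroblast libraries 1, 2 and 4. As CPM these were 25.0, 8.84 and 8.40 in exosomes, against 33.7, 54.2 and 48.0 in fibroblasts. The 2 groups did not overlap, as held for 2 of the 4 members and for 30.1% of all tested miRNAs. With 5 exosome counts in all, a log2 fold change of -1.46 (SE 0.88) missed the threshold (edgeR adjusted p = 0.22). Without miR-873-3p in the totals the order of the groups turned, at 165, 69.7 and 84.6 CPM in exosomes, against 34.1, 54.4 and 49.1 CPM in fibroblasts.

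**Figure D2:**
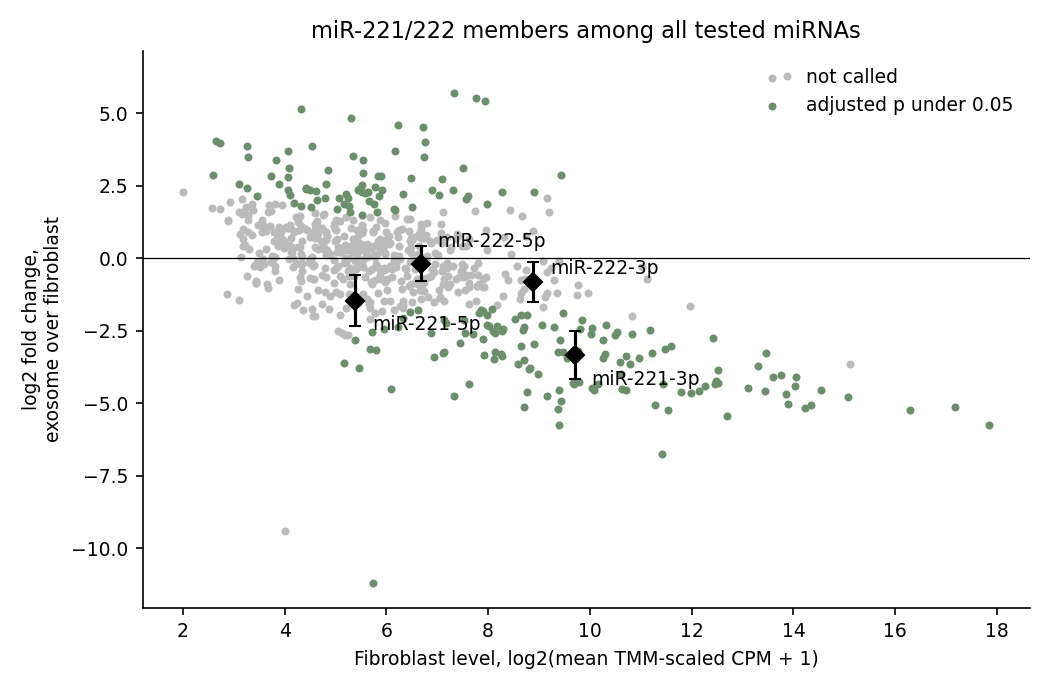
Each point is 1 of the 698 tested miRNAs, with its level in fibroblasts as log2(mean TMM-scaled CPM + 1) on the x axis and its log2 fold change, exosome over fibroblast, on the y axis; diamonds are the members, with their standard error. miR-221-3p lies at -3.34 and was called, and miR-222-3p lies at -0.81 and was not.

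Among miRNAs of a like level in fibroblasts, values of both kinds occurred. Level was taken here as the mean TMM-scaled CPM of the fibroblast libraries, in which neighbours can differ from those by unscaled CPM. Next to miR-221-3p were miR-128-2-5p, with a log2 fold change of -1.28 (SE 0.76) and no call, and miR-214-3p, a miRNA of mesenchymal cells, with -4.33 (SE 0.87) and a call. Those next to miR-222-3p were miR-23b-3p, with -2.96 (SE 0.75) and a call, and miR-598-3p, with 0.95 (SE 0.76) and no call (edgeR adjusted p = 0.22, 2.2e-05, 0.00067 and 0.39 in this order). With library sizes free of the 5 most abundant miRNAs of each group miR-23b-3p was not called (-0.99, edgeR adjusted p = 0.26), miR-598-3p was called higher (3.11), and miR-128-2-5p was at 0.63. miR-598-3p was called higher under 4 of 15 alternatives in all, that one, the fit without fibroblast library 4 and both fits of libraries 1 and 2 alone, at 2.17 to 3.11 (edgeR adjusted p from 0.00019 to 0.032).

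The balance between the guide strands of the hairpins differed in exosome libraries 1 and 2 from that in the cells. This ratio does not depend on the scaling between libraries or on miR-873-3p. In fibroblasts miR-221-3p was the more abundant guide in each library; in exosome libraries 1 and 2 it was miR-222-3p. Of the counts of both 3p members, miR-222-3p made up 90.9% in exosome library 1 (95% Clopper-Pearson interval 81.3 to 96.6) and 86.4% in exosome library 2 (72.6 to 94.8). In the unnumbered exosome library it made up 37.5%, or 6 of 16 counts (15.2 to 64.6). In fibroblast libraries 1, 2 and 4 it made up 39.4%, 34.3% and 35.1%, with intervals that all lay between 33.5% and 40.6%.

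**Figure D3:**
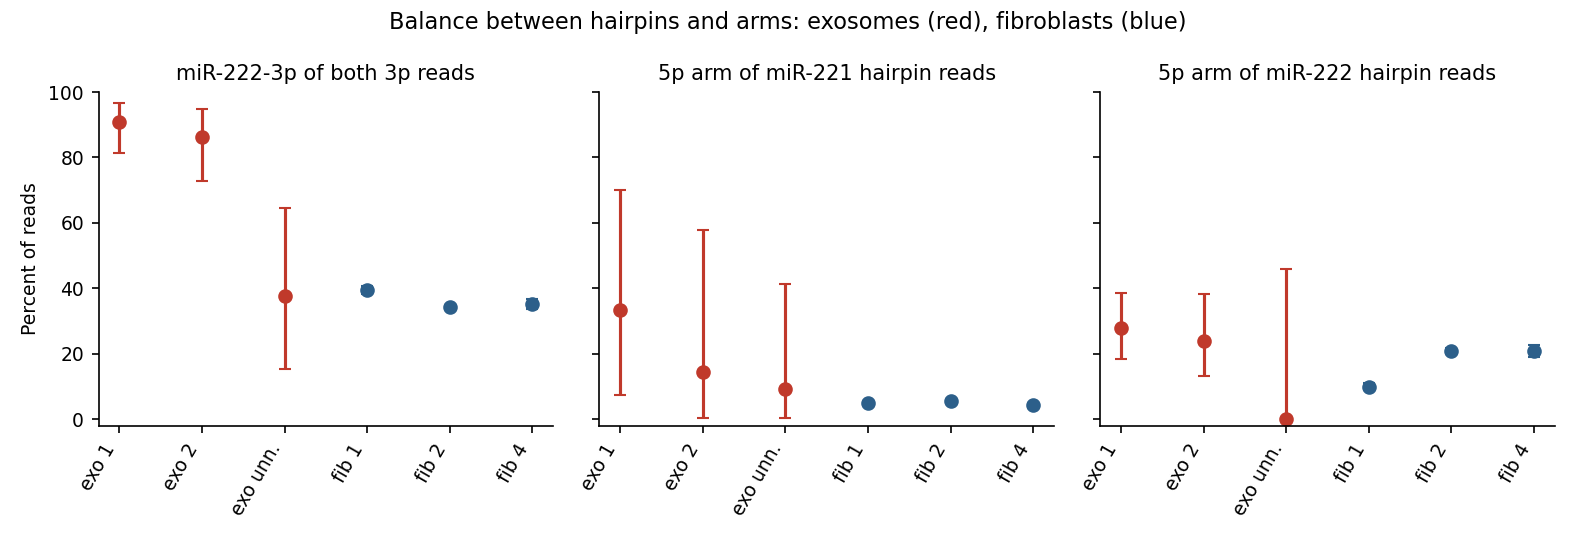
Percent of the counts of both 3p members that were miR-222-3p (left), and percent of each hairpin's counts from its 5p arm (middle and right), per library with 95% Clopper-Pearson intervals. In exosome libraries 1 and 2 miR-222-3p made up 90.9% and 86.4%, against 34.3% to 39.4% in fibroblasts, and the unnumbered exosome library, at 37.5%, lay among the fibroblast libraries.

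As a ratio, miR-222-3p stood at 10 and 6.33 times miR-221-3p in exosome libraries 1 and 2 and at 0.6 in the unnumbered one, against 0.651, 0.521 and 0.541 in fibroblast libraries 1, 2 and 4. The log2 ratio, with 0.5 added to both counts, averaged 1.70 ± 2.09 over the exosome libraries and -0.81 ± 0.17 over the fibroblast libraries (SD, n = 3 each). The difference was 2.51 (exact two-sided permutation p = 0.2), and the unnumbered exosome library fell within the fibroblast range. With 3 against 3 libraries no p below 0.1 is possible, so this test cannot decide whether the groups differed. Leaving out 1 library at a time gave differences of 1.75 (without exosome library 1) to 3.71 (without the unnumbered one), with exact permutation p from 0.1, the smallest that 2 against 3 libraries allow, to 0.3. The unnumbered library was also the exosome library with the highest share of fibroblast markers, 13.7% of the counts other than miR-873-3p against 1.19% and 1.86% in exosome libraries 1 and 2; the part of this in the ratio was not tested.

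Both arms of the miR-222 hairpin together showed the same split, but their counts include the 3p counts above, so this is no separate observation. The groups overlapped (exact two-sided permutation p = 0.4, not among the 4 tests adjusted together). They made up 90.2%, 87.7% and 35.3% of the counts of the cluster in exosome libraries 1, 2 and unnumbered, against 40.7%, 38.3% and 39.5% in fibroblast libraries 1, 2 and 4. The unnumbered value rests on 6 of 17 counts.

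Use of the arms within a hairpin did not pass a test for either hairpin. The 5p arm gave 33.3%, 14.3% and 9.09% of the miR-221 hairpin counts in exosome libraries 1, 2 and unnumbered, against 4.91%, 5.66% and 4.22% in fibroblast libraries 1, 2 and 4. All exosome values were the higher, but they rest on 9, 7 and 11 counts, and their intervals reached down to 7.49%, 0.361% and 0.230%. The ratio of the 5p to the 3p arm differed by a log2 value of 1.88 (edgeR's diffSpliceDGE, adjusted p = 0.15, and 0.068 to 0.63 over the alternatives run with that test). It was 1.00 without exosome library 1 and 2.76 without the unnumbered one. For miR-222 the 5p shares were 27.7%, 24.0% and 0% in exosome libraries 1, 2 and unnumbered, against 9.91%, 20.8% and 20.8% in fibroblast libraries 1, 2 and 4. These overlapped, and the log2 difference was 0.63 (diffSpliceDGE, adjusted p = 0.61). Of the 248 hairpins with both arms tested 33.5% were called, and 0 of the 2 of this cluster were. With an unadjusted p under 0.05 the share was 40.7% of all hairpins and 0 of these 2. In exact permutation tests of the 5p percent, p was 0.1 for miR-221 and 1 for miR-222.

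Between the 5p members, miR-222-5p was the more abundant in exosome libraries 1 and 2 and in every fibroblast library. The fibroblasts thus held miR-221 mainly as its 3p arm, with a 5p share of 4.93% ± 0.719, and miR-222 with a larger 5p share of 17.2% ± 6.27 (SD, n = 3 each). Fibroblast library 1 set the lower end of the miR-222 value.

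Across the 6 libraries the arms of 1 hairpin followed each other more than the guides of the 2 hairpins did, as a description of 6 points that share their libraries and depths. Pearson's r of log2(TMM-scaled CPM + 1) was 0.88 between miR-221-3p and miR-221-5p and 0.85 between miR-222-3p and miR-222-5p. It was 0.37 between miR-221-3p and miR-222-3p, and lay from 0.02 to 0.53 over all pairs of arms from different hairpins. The exosome points of the 5p arms rest on few counts: 3, 1 and 1 for miR-221-5p, and 23, 12 and 0 for miR-222-5p, in exosome libraries 1, 2 and unnumbered.

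The miRNAs most like each guide also differed. Of 422 other miRNAs with a mean of at least 50 TMM-scaled CPM, those closest to miR-221-3p over the 6 libraries were let-7c-5p, miR-192-5p, miR-151-3p, miR-31a-5p and miR-99b-5p, with r of 0.99 each. Each had more exosome counts in the unnumbered library than in the others, as miR-221-3p had. Those closest to miR-222-3p were miR-409a-3p, miR-27a-5p, miR-425-3p, miR-632 and miR-652-3p, with r from 0.89 to 0.91. Each had its fewest exosome counts in the unnumbered library; miR-652-3p, for example, had 48, 23 and 5 counts in exosome libraries 1, 2 and unnumbered, and miR-31a-5p 5, 7 and 21.

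Other miRNAs studied in endothelium and vascular smooth muscle moved in both directions. Of 49 tested members of that list, 6 were higher and 17 lower in exosomes, with a median log2 fold change of -0.37, beside 79 higher and 130 lower of all 698 tested miRNAs and a median of -0.15. The 6 higher include miR-126a-3p (log2 4.85, SE 0.85, edgeR adjusted p = 1.3e-06) by the raw counts. The exosome shares of the miR-126a arms were lower in the deposited normalized table, as given below. The split over all miRNAs depended on the scaling: it was 43 higher and 121 lower with total counts, and 234 and 52 with library sizes free of the 5 most abundant miRNAs of each group. The most abundant called were miR-143-3p of smooth muscle and mesenchyme (log2 -5.75, SE 2.25), miR-21-5p, widely studied in cardiac fibrosis (log2 -5.23, SE 1.86), miR-27b-3p (log2 -4.04, SE 1.33) and miR-10a-5p (log2 -3.73, SE 1.25), all lower in exosomes. Without exosome library 1 none of these 4 was called (edgeR adjusted p from 0.10 to 0.18), and neither without exosome library 2 (0.082 to 0.13). miR-221-3p was called in each of these fits (edgeR adjusted p = 0.031 without exosome library 1 and 0.024 without exosome library 2).

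Markers of endothelium, the cell type in which the cluster is best known, were scarce in the cells. The arms of miR-126a, the endothelial marker pair, together held 0.0965%, 0.0840% and 0.0966% of the counts of exosome libraries 1, 2 and unnumbered, against 0.0100% to 0.0152% in fibroblast libraries. The marker lists of cardiomyocytes (6 of 6 listed), blood (5 of 6) and epithelium (5 of 5) each held at most 0.0349% of the counts of any exosome library and at most 0.0299% of those of any fibroblast library; their part in the results was not tested. In the deposited normalized table the exosome shares of miR-126a were lower, at 0.0117%, 0.00622% and 0.0185%, against 0.00885% to 0.0143% in fibroblasts. The exosome reads of the cluster were nearly the same in that table: 22 in place of 23 for miR-222-5p in library 1, 0 in place of 1 for miR-221-5p in library 2, and equal for the other values. The fibroblast reads of the cluster were not compared in this way, as whole reads could not be recovered for fibroblast libraries 1 and 2.

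Other miRNAs of the X chromosome were called in both directions. Of 97 listed, 96 were tested, of which 9 were higher and 13 lower in exosomes, beside 11.3% higher and 18.6% lower of all tested miRNAs. Their median log2 fold change was 0.00, and with library sizes free of the 5 most abundant miRNAs of each group 27 were higher and 4 lower, with a median of 1.67. The most abundant called were miR-351-5p of the miR-322/503 cluster (log2 -4.69, SE 1.38) and miR-98-5p of the let-7 family (log2 -3.20, SE 0.82), both lower, and miR-3552 (log2 5.41, SE 1.34) and miR-3560 (log2 2.88, SE 1.07), both higher. miR-3560 was not called when exosome library 2, the unnumbered one, or fibroblast library 1 or 2 was left out (edgeR adjusted p from 0.064 to 0.15), and miR-98-5p was not with library sizes free of the 5 most abundant miRNAs of each group (0.11).

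**Figure D4:**
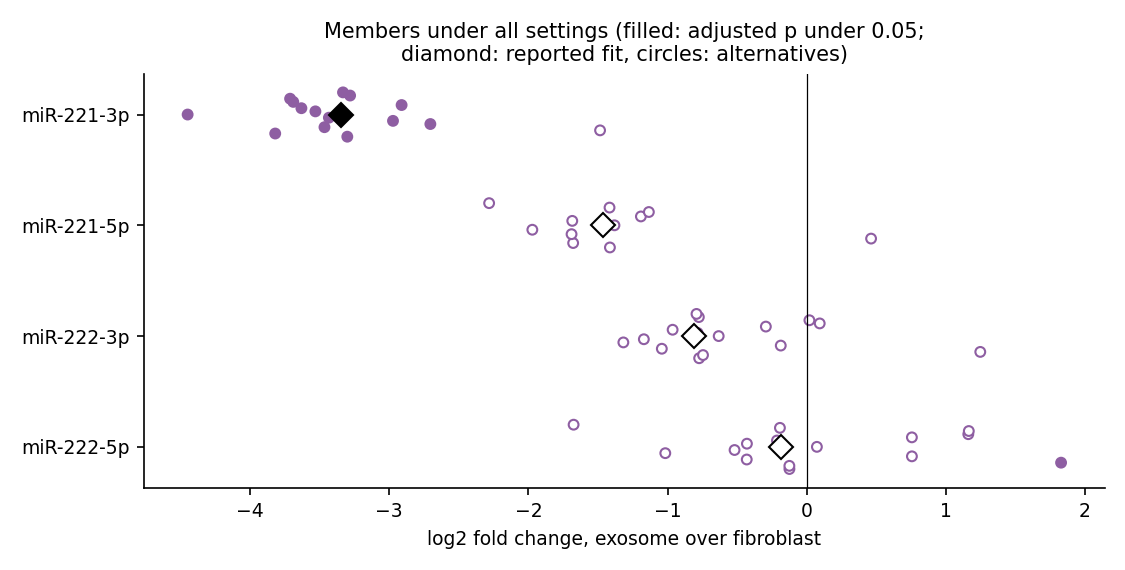
log2 fold changes, exosome over fibroblast, of each member under the reported fit (diamonds) and the alternatives (circles), filled where the adjusted p was under 0.05. miR-221-3p lay below 0 under every setting run, between -4.45 and -1.48, while miR-221-5p, miR-222-3p and miR-222-5p lay on both sides of 0.

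The authors' deposited table, whose ratios run fibroblast over exosome, had the members in the same order. In the authors' deposited table the log2 ratio, fibroblast over exosome, was 3.13 for miR-221-3p, 1.64 for miR-221-5p, 0.81 for miR-222-3p and 0.32 for miR-222-5p. Its adjusted p was 0.059 for miR-221-3p and 1 for each of the other members of the authors' deposited table, in which 53 of 728 miRNAs had an adjusted p under 0.05.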

How the data were processed

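Small RNA libraries of 3 exosome and 3 fibroblast samples were used. The main tests used the raw counts of reads for each mature miRNA that the authors deposited. The normalized signal in the authors' second table equals counts over a size factor for each exosome library, as its values show. Those counts were not always the raw counts: miR-222-5p had 22 in place of 23 in exosome library 1. For fibroblast libraries 1 and 2 whole reads could not be recovered, so the same was not shown for them. The raw and normalized tables differed more for miR-126a. Its arms held 0.0965%, 0.0840% and 0.0966% of raw counts in exosome libraries 1, 2 and unnumbered, against 0.0117%, 0.00622% and 0.0185% of normalized ones. The normalized table has a last row of reads outside the listed miRNAs (63.1% to 84.4% of the signal) that was left out. The authors' deposited comparison gave a ratio of mean normalized counts (fold), its log2 value, and a p-value, raw and adjusted, per the file headers. Its mean columns equalled those of the deposited normalized table within 3.33e-05. The submitters' processing notes name CASAVA 1.8.2, cutadapt 1.2.1, DESeq and rn5. For the aligner, the rule of counting and the miRNA release, nothing is given in the sources used here. Columns were matched to samples by name.

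The fit used edgeR 4.0.16 under R 4.3.3 (scaling by TMM, filterByExpr with minimum count 10 and minimum total 15, quasi-likelihood test on group, two-sided, Benjamini-Hochberg, threshold 0.05). The TMM factors were 1.34, 1.13 and 0.433 for exosome libraries 1, 2 and unnumbered, and 0.968, 1.99 and 0.792 for fibroblast libraries 1, 2 and 4. The filter kept 698 of 728 miRNAs and all 4 members. Since it works on CPM, a miRNA scarce in fibroblasts could pass through its exosome reads. A standard error is the absolute log2 fold change over the square root of F. The biological coefficient of variation was 54.3%. Arm use was tested with diffSpliceDGE, single values with exact permutation tests (4 tests; Benjamini-Hochberg adjusted p = 0.2 for the summed share, 0.2 and 1 for the 5p shares of miR-221 and miR-222, and 0.27 for the guide ratio). DESeq2 1.42.0 and limma 3.58.1 (on log2(normalized value + 1)) served as alternatives. The fits were also run on simulated data with less spread between libraries than these data and with mean shares pooled over both groups. That run is therefore no measure of how the fits perform here. Every pair of libraries within a group differed by more than sampling noise (chi-square over its degrees of freedom from 4.10 to 621). Intervals and floors describe counting error alone, because PCR copies are not independent molecules.

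The members and lists were chosen with earlier results of these data known. Named miRNAs were the members, the top exosome miRNA, the 4 most abundant called per list, the neighbours in fibroblast level and the 5 most alike per guide; miRNA sequences matched 655 of 728 listed names.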

Additional observations from a re-analysis of the deposited data

How the results depend on the processing

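The call of miR-221-3p as lower in exosomes held under 14 of 15 alternatives. The other setting, library sizes without the 5 most abundant miRNAs of each group, gave -1.48; it gave 0.46 for miR-221-5p, 1.25 for miR-222-3p and 1.83 for miR-222-5p (edgeR adjusted p = 0.078, 0.77, 0.11 and 0.046), where the median of all tested miRNAs was 1.58. Relative to the median under each setting, miR-221-3p lay between -4.25 and -2.61, miR-222-3p between -0.96 and 0.27 and miR-222-5p between -1.22 and 1.35. miR-221-5p lay between -1.83 and -0.95 in the 12 settings in which it was tested. The sign of miR-222-5p also turned with thinned fibroblast libraries (0.76). Leaving out 1 library at a time gave -4.45 to -2.91 for miR-221-3p, -1.97 to -1.38 for miR-221-5p, -1.32 to -0.29 for miR-222-3p and -1.02 to 0.76 for miR-222-5p. The last was above 0 when the unnumbered exosome library (0.074) or fibroblast library 4 (0.76) was left out. These fits gave 134 to 214 calls in all, against 209 of 698 tested in the reported fit. They tested between 359 and 725 miRNAs, so the counts do not compare directly. Without exosome library 2, 134 of 724 were called, 46 higher and 88 lower. Without fibroblast library 2, 192 of 359 were called. The cause was not tested.

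Libraries numbered 1 and 2 were also fitted with the replicate number as a block: miR-222-3p was at 0.094 and miR-222-5p at 1.16, against 0.020 and 1.17 without the block in the same libraries (none called), with 242 and 248 calls of 724 tested. Deviations of same-numbered libraries correlated at -0.10 and 0.17, and the labels give no pairing.

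The summed share difference, -0.11 percentage points, became 0.19 without miR-873-3p in the total. Among other vascular miRNAs the counts became 12 higher and 11 lower without the 5 most abundant, 3 higher by limma, and 11 to 20 lower with 1 library left out. Among other X-linked miRNAs they became 4 higher with total counts, and 27 higher and 4 lower without the 5 most abundant. miR-128-2-5p turned to 0.63 under that setting. Calls over all miRNAs were 79 higher and 130 lower of 698 tested, and 41 and 100 of 698 by limma. With thinned fibroblast libraries they were 72 and 106, but of only 333 tested, so the called share was larger there. Members' exosome counts of 0 to 60 limit what could be detected. Tests on reads behind the normalized table were not run, as whole reads could not be recovered for fibroblast libraries 1 and 2. Only limma used the normalized values, and DESeq2 was run on the raw counts. miR-221-5p did not pass the filter when thinned or without a fibroblast library.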
